A study of Mus musculus with 16 samples.

Results

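The cytosolic ribosomal protein genes were followed in tibialis anterior, a fast muscle of the lower hindlimb, of mice that differed in maternal and offspring diet. Members were all genes on the array whose symbol is that of a protein of the large subunit (Rpl) or the small subunit (Rps), including Rpsa, Rplp0, Rplp1 and Rplp2 and leaving out the Rps6k kinases. The rule found 82 genes on 118 probes among 24828 genes tested, 50 of the large and 32 of the small subunit. Of these, 5 are paralogs of a core protein (Rpl3l, Rpl7l1, Rpl22l1, Rpl39l and Rps27l). All 82 passed the filter on dim probes, and 81 of them were well above background on all 16 arrays. Rpl39l was so on 15. Rpl10l and Rps4l were not among the probes that could be named.

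The 4 groups were undernourished offspring under calorie restriction (undernourished CR), undernourished offspring fed ad libitum (undernourished AL), control offspring under calorie restriction (control CR) and control offspring fed ad libitum (control AL). Dams of undernourished offspring received 50% less food in week 3 of gestation, and dams of control offspring did not. Each group had 8 mice, pooled by 2, giving 4 one-colour arrays per group. Strain, age and sex are not given in the sources used here, and nothing says whether the pools of a group came from separate litters, so p-values measure only the spread between these pools.

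Ribosomal proteins bind the ribosomal RNAs to build the 40S and 60S subunits that translate messenger RNA. Their transcripts carry a run of pyrimidines directly at the cap, the 5′ terminal oligopyrimidine or TOP element, through which mTORC1 signalling controls their translation, and in muscle they set the capacity for protein synthesis. Mammalian genomes hold many processed copies of these genes, so a probe may also bind RNA of a near-identical copy.

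The promoters below belong to genes with some of the largest rises in CR relative to AL, plus Rpl27a, which was lower. The stretch runs from 50 bases before the annotated start to 10 bases from it, on the strand of the gene (RefSeq, GRCm38.p6). Capitals mark a pyrimidine run that begins with C at the annotated start, and a sequence without capitals has none there. Their positions are chr2:39005122-39005181 for Rpl35 (minus strand), chr14:18270977-18271036 for Rpl15 (minus strand), chr16:33056432-33056491 for Rpl35a (plus strand, window 2 of its 3 annotated starts), chr9:44407664-44407723 for Rps25 (plus strand), chr10:128626497-128626556 for Rps26 (minus strand) and chr7:109519145-109519204 for Rpl27a (plus strand).
Rpl35: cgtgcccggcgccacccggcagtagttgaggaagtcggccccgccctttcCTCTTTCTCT
Rpl15: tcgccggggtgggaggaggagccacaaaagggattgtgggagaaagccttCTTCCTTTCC
Rpl35a: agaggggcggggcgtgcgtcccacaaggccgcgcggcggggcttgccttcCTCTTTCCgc
Rps25: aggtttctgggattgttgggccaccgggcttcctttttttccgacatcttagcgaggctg
Rps26: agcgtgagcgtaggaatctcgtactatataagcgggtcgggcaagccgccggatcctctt
Rpl27a: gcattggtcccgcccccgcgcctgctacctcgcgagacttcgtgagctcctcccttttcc

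Promoter entries were matched for 62 of the 82 genes. A C followed by at least 4 C or T at the annotated start was found in 13 of 62 genes (21%), against 813 of 27025 genes in the whole table (3.01%). Rpl4, called higher in control CR, and Rpl10, called higher in CR in both maternal groups, have no such run and are not printed above. The other annotated starts of Rpl35a have none either. The motif CTTCCGG, searched on both strands over the 250 bases before and 50 bases from the start, was present in 26 of 62 (41.9%), against 9.93% of all genes, and CCATNTT in 20 of 62 (32.3%), against 18.2%. TATAAA was present in 7 of 62 (11.3%), against 15.7%. The motifs were searched independently and may overlap. A match describes letters in these windows.

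Between 66.4% and 78.5% of the probe spots of an array were well above background, no spot was saturated, and arrays correlated with each other at 0.917 to 0.9928. All CR arrays were scanned on one day and all AL arrays on another, and the slides were split the same way, so offspring diet, scan day and slide cannot be told apart. Each slide held 2 undernourished and 2 control arrays. The control AL arrays held brain marker transcripts, with array medians over 40 markers of −1.42 to 1.58 (log2 level, with the 75th percentile of the array at 0), and undernourished AL arrays held −2.27 to −0.60. Undernourished CR arrays lay at −4.59 to −4.22 and control CR arrays at −4.65 to −4.37. Skin marker medians were −4.85 to −3.34 in undernourished CR, −4.42 to −2.85 in undernourished AL, −4.67 to −4.44 in control CR and −4.31 to −0.51 in control AL. In bulk muscle, fewer cells of a type and less RNA per cell cannot be told apart.

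Members moved together from array to array. The median deviation of the 82 genes from their own means was −0.00045, 0.02, 0.04 and 0.47 on undernourished CR arrays 1 to 4, and −0.03, −0.03, −0.21 and −0.12 on undernourished AL arrays. In control CR it was 0.07, 0.19, 0.12 and 0.05, and in control AL −0.29, −0.28, −0.15 and 0.15. Undernourished CR replicate 4 stood apart as the highest array of all 16 for 62 genes, and control AL replicate 1 was the lowest for 35. Control AL replicate 4, with the lowest brain and skin marker medians of its group, was also the AL array with the highest ribosomal protein median.

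**Figure D1:**
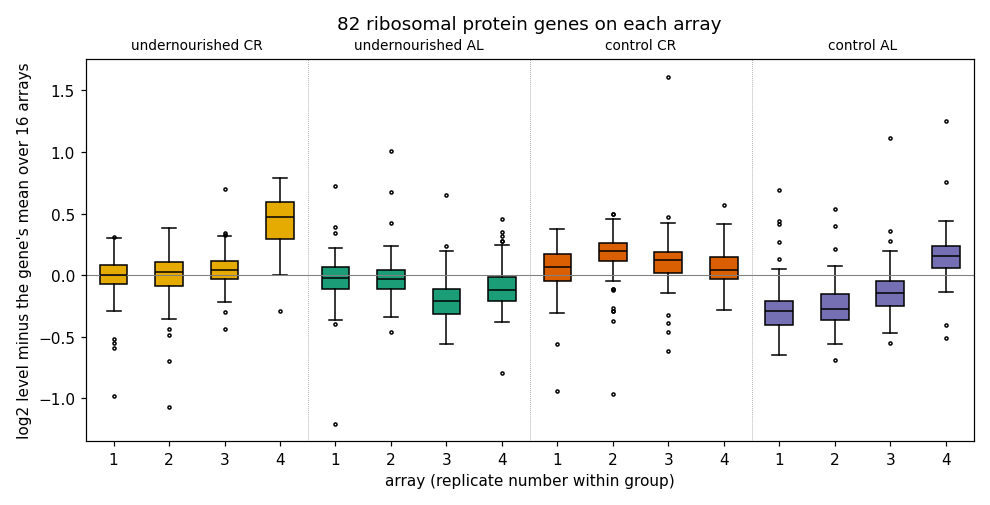
Boxes show the 82 genes on each array as log2 level minus the gene's mean over 16 arrays, for undernourished CR, undernourished AL, control CR and control AL, with replicate number on the horizontal axis. Box lines are medians and quartiles, and whiskers reach 1.5 times the interquartile range. Undernourished CR replicate 4 (median 0.47) lies above the other arrays.

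**Figure D2:**
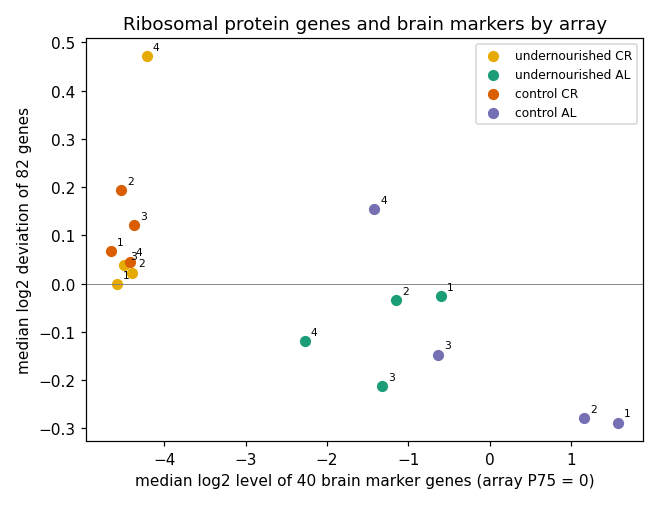
Each point is 1 array, with the median log2 level of 40 brain markers on the horizontal axis and the median log2 deviation of the 82 genes on the vertical axis, labelled by replicate. AL arrays have the higher brain medians (−2.27 to 1.58), and control AL replicates 1 and 2 combine the highest of these with the lowest ribosomal protein medians.

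In undernourished offspring, 13 of the 82 genes were called higher in CR than in AL and 1 lower (limma, Benjamini-Hochberg adjusted p under 0.05 over all genes). Called higher were 15.9% of members, against 10.5% of all genes, and called lower 1.22%, against 9.85%. The median change was 0.23 on the log2 scale, against −0.0027 for all genes, and 67 members had a positive change. The genes that rose were Rps26, Rps25, Rpl21, Rpl10, Rpl15, Rpl35, Rpl35a, Rpl7, Rpl9, Rps3a1, Rps10, Rps15a and Rps9. Of the 14 genes called in either direction, 10 were called in all 8 fits that left out 1 undernourished array. Rps10 was called in 4 of those fits, Rps9 in 2 and Rps15a in 1, and Rpl35 was lost in 1. Rps10, Rps9 and Rps15a were also not called with slide as a random block. The gene that fell was Rps19, a small subunit protein whose human gene is mutated in Diamond-Blackfan anaemia. Large subunit genes were called higher in 7 of 50 and small subunit genes in 6 of 32. The planned normexp background correction, which a few spots of extreme local background distorted, called 0 members in undernourished and 0 in control offspring. With those backgrounds replaced, a repair chosen after that result was seen, it called 41 and 36. Over all genes in control offspring the planned fit called 524 and the repaired fit 11800, against 8029 in the main fit.

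Rps26, a protein of the 40S mRNA exit region, read 4.76, 4.84, 4.78 and 5.22 in undernourished CR, against 4.06, 3.998, 3.90 and 4.10 in undernourished AL (log2 level). It rose by 0.89 ± 0.12 (SE, adjusted p = 0.000396). The groups did not overlap, and the highest value was replicate 4 of undernourished CR. Rps25, which is needed for initiation at some viral internal ribosome entry sites, read 7.20, 7.20, 7.23 and 7.60 in undernourished CR, against 6.52, 6.57, 6.40 and 6.51 in undernourished AL. It rose by 0.81 ± 0.13 (adjusted p = 0.000944), again with replicate 4 highest and no overlap. A second, dimmer Rps25 probe moved the other way, by −0.15 ± 0.16.

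Rpl21, a 60S protein, read −2.13, −1.98, −2.13 and −1.66 in undernourished CR, against −2.61, −2.61, −2.63 and −3.06 in undernourished AL. It rose by 0.75 ± 0.15 (adjusted p = 0.00297) without overlap. Rpl10, which joins the 60S subunit late in its assembly, read 5.80, 5.56, 5.76 and 6.23 in undernourished CR, against 5.23, 5.19, 5.11 and 5.19 in undernourished AL. It rose by 0.66 ± 0.13 (adjusted p = 0.00265). Rpl15 read 5.73, 5.85, 5.89 and 6.40 in undernourished CR, against 5.35, 5.48, 5.15 and 5.37 in undernourished AL, a rise of 0.63 ± 0.14 (adjusted p = 0.00718). Rpl35, at the 60S exit tunnel, read 6.03, 6.13, 6.02 and 6.69 in undernourished CR, against 5.81, 5.65, 5.40 and 5.54 in undernourished AL, and rose by 0.62 ± 0.17 (adjusted p = 0.0197). In all 4 genes the groups were separate, and without undernourished CR replicate 4 all 4 were still called. Rpl35 was not called without undernourished AL replicate 3.

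Rps19 read 0.71, 0.78, 0.82 and 1.499 in undernourished CR, against 1.98, 1.93, 1.494 and 1.71 in undernourished AL. It fell by 0.83 ± 0.21 (adjusted p = 0.0119). The groups overlapped through replicate 4 of undernourished CR and replicate 3 of undernourished AL. Rps19 was not called with the authors' log2 values.

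In control offspring, 22 of the 82 genes were called higher in CR than in AL and 2 lower. Called higher were 26.8% of members, against 17.3% of all genes, and called lower 2.44%, against 15.0%. The median change was 0.24, against 0.07 for all genes, and 68 members were positive. Large subunit genes were called higher in 14 of 50, small subunit genes in 8 of 32 and paralogs in 3 of 5. The count depended on single arrays of both groups. It was 11 without control CR replicate 2 and 13 without control CR replicate 3, against 10 without control AL replicate 1, 9 without control AL replicate 2 and 36 without control AL replicate 4. Calls over all genes in these fits were, in the same order, 6616, 6765, 6192, 6520 and 9109, against 8029 in the main fit. Of the 24 genes, 9 were called in all 8 fits that left out 1 control array (Rps25, Rps26, Rpl35, Rpl4, Rpl35a, Rpl15, Rpl7, Rps3a1 and Rpl3l). The count was 0 when 5 arrays in which skin markers or albumin were raised were left out, which leaves control AL with replicate 4 alone, assumed to vary like the other groups. Without those arrays the median was −0.05, above the all-gene median of −0.11. With quantile normalization it was 0.07, below the all-gene median of 0.16. With the authors' log2 values it was 0.66, against 0.29 for all genes. Of 40 brain markers, 34 were called lower in CR than in AL in control offspring and 25 in undernourished offspring. Of 14 leukocyte markers, 1 was called lower in undernourished and 11 in control offspring, and of 16 skin markers 0 and 12. With a brain marker index as covariate, 15 members were called in undernourished and 2 in control offspring. Over all genes, that fit called 3428 in control offspring, against 8029 in the main fit.

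Rps25 read 7.26, 7.32, 7.31 and 7.12 in control CR, against 6.29, 6.44, 6.42 and 6.83 in control AL. It rose by 0.76 ± 0.13 (adjusted p = 0.000667), without overlap. Its second probe fell by 0.57 ± 0.16, so the 2 probes disagree. That probe was far dimmer, with a mean log2 level of −3.83 against 6.89 for the probe used. Rps25 was not called in either maternal group when the probes of a gene were averaged, which weighs both probes alike. Rps26 read 4.73, 4.71, 4.94 and 4.74 in control CR, against 4.11, 3.98, 4.13 and 4.38 in control AL, a rise of 0.63 ± 0.12 (adjusted p = 0.00167). The groups of Rps26 were separate as well.

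Rpl35 read 6.10, 6.41, 6.24 and 6.14 in control CR, against 5.41, 5.38, 5.64 and 5.96 in control AL, and rose by 0.62 ± 0.17 (adjusted p = 0.0116). Rpl4, a 60S protein that lines the exit tunnel, read 4.28, 4.47, 4.34 and 4.18 in control CR, against 3.45, 3.72, 4.06 and 3.58 in control AL, and rose by 0.61 ± 0.13 (adjusted p = 0.00325). Both genes separated the groups. Rpl35a read 5.34, 5.32, 5.58 and 5.36 in control CR, against 4.70, 4.79, 4.62 and 5.23 in control AL, and rose by 0.56 ± 0.14 (adjusted p = 0.00575). Rpl15 read 5.88, 5.88, 5.90 and 5.90 in control CR, against 5.16, 5.26, 5.31 and 5.58 in control AL, and rose by 0.56 ± 0.14 (adjusted p = 0.00749). In each of these 4 genes the highest control AL value was replicate 3 or 4.

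Rpl3 and its paralog Rpl3l, which takes the place of Rpl3 in ribosomes of striated muscle, were called in opposite directions in control offspring. Rpl3l read 6.78, 6.81, 6.87 and 6.70 in control CR, against 6.03, 6.24, 6.40 and 6.65 in control AL, and rose by 0.46 ± 0.12 (adjusted p = 0.00965) without overlap. Rpl3 read 3.43, 3.42, 3.58 and 3.71 in control CR, against 4.12, 4.11, 3.86 and 3.64 in control AL. It fell by 0.40 ± 0.13 (adjusted p = 0.0320), the groups overlapped, and the call was lost in 5 of the 8 fits that left out 1 control array. In undernourished offspring neither passed the test: Rpl3l changed by 0.20 ± 0.12 (adjusted p = 0.248) and Rpl3 by −0.09 ± 0.13 (adjusted p = 0.679).

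The other gene that fell, Rpl27a, a 60S protein, read 0.96, 1.99, 1.28 and 2.03 in control CR, against 2.59, 2.43, 1.75 and 2.65 in control AL. It fell by 0.79 ± 0.26 (adjusted p = 0.0303), with overlapping groups. The call was lost in 5 of the 8 fits that left out 1 control array, and with the authors' log2 values. In undernourished offspring its change was −0.46 ± 0.26 (adjusted p = 0.227).

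Of the remaining fixed members, Rps6, the substrate of S6 kinase, changed by 0.10 ± 0.16 in undernourished and 0.13 ± 0.16 in control offspring (adjusted p = 0.685 and 0.546). The acidic stalk proteins, which recruit translation factors, did not pass either: Rplp0 changed by −0.26 ± 0.12 and −0.16 ± 0.12, Rplp1 by −0.21 ± 0.14 and −0.14 ± 0.14, and Rplp2 by 0.07 ± 0.13 and 0.22 ± 0.13 in undernourished and control offspring. A second Rplp0 probe moved the other way, by 0.32 ± 0.14 in undernourished and 0.51 ± 0.14 in control offspring. Rpl5 and Rpl11, which bind Mdm2 as part of the 5S particle, rose in control offspring by 0.44 ± 0.16 and 0.42 ± 0.13 (adjusted p = 0.0430 and 0.0243), but of the 8 fits that left out 1 control array Rpl5 was called in 1 and Rpl11 in 4. Rpl5 was not called with slide as a random block. In undernourished offspring they changed by 0.29 ± 0.16 and 0.30 ± 0.13 (adjusted p = 0.206 and 0.119). Rps27a, made as a fusion with ubiquitin, changed by 0.35 ± 0.14 and 0.30 ± 0.14 (adjusted p = 0.0787 and 0.103).

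Further members called in both maternal groups rose by 0.35 to 0.57. Rpl7, a 60S protein, rose by 0.57 ± 0.12 in undernourished and by 0.49 ± 0.12 in control offspring (adjusted p = 0.00484 and 0.00608). Its 2 other probes changed by 1.11 ± 0.13 and 0.82 ± 0.11 in undernourished offspring and by 1.06 ± 0.13 and 0.75 ± 0.11 in control offspring, so all 3 probes had the same sign. Rps3a1, a protein of the 40S subunit, rose by 0.50 ± 0.13 and 0.48 ± 0.13 (adjusted p = 0.0126 and 0.00855), and its second probe changed by 0.49 ± 0.17 and 0.28 ± 0.17, in undernourished and control offspring. Over all members, 35 further probes of 29 genes were kept, of which 26 had the sign of the probe used and 9 the opposite sign, in each maternal group.

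Among the paralogs, Rps27l, whose transcript is induced by p53, rose in control offspring by 0.46 ± 0.17 (adjusted p = 0.0496), and Rpl7l1 by 0.44 ± 0.14 (adjusted p = 0.0263). Of the 8 fits that left out 1 control array, Rps27l was called in 1 and Rpl7l1 in 4, and Rps27l was not called with quantile normalization or with slide as a random block. In undernourished offspring they changed by 0.33 ± 0.17 and 0.26 ± 0.14 (adjusted p = 0.180 and 0.197). Rps27, the partner of Rps27l, changed by 0.28 ± 0.16 in both (adjusted p = 0.224 and 0.200 in undernourished and control offspring). Rpl22 changed by 0.27 ± 0.17 and 0.31 ± 0.17, and its paralog Rpl22l1 by 0.28 ± 0.19 and 0.02 ± 0.19, in undernourished and control offspring, and neither passed the test. Rpl39l, whose core relative lies in the 60S exit tunnel, had the widest error, with −0.06 ± 0.59 and −0.12 ± 0.59. Rpsa, also a laminin receptor, changed by −0.47 ± 0.16 and −0.11 ± 0.16 (adjusted p = 0.0539 and 0.649), and the X-linked Rps4x by −0.08 ± 0.17 and 0.23 ± 0.17 (adjusted p = 0.765 and 0.310).

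**Figure D3:**
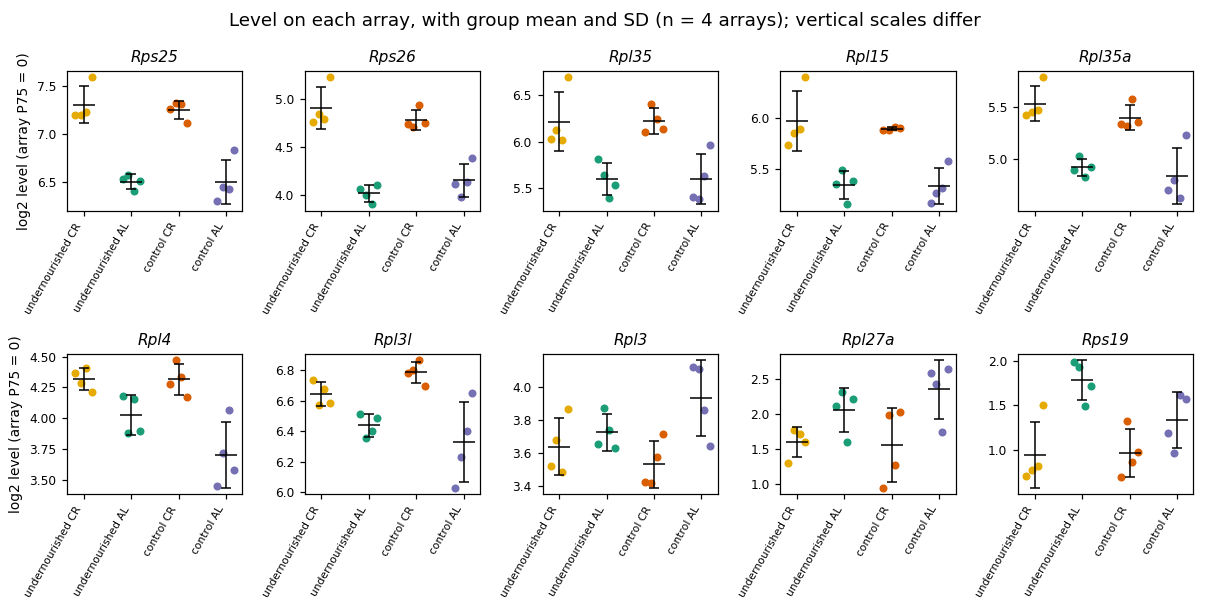
Points are the log2 levels of 10 genes on each array in undernourished CR, undernourished AL, control CR and control AL, with group mean and SD (n = 4), and the vertical scales differ between genes. Rps25 and Rps26 are higher in CR than in AL in both maternal groups, with no overlap, while Rps19, Rpl27a and Rpl3 are lower on average.

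The 2 CR comparisons use separate arrays, but share one estimate of spread and set the same slides and scan day against the same others, so agreement between them cannot be told apart from slide or scan day. 11 genes were called higher in both (Rps25, Rps26, Rpl35, Rpl35a, Rpl15, Rpl10, Rpl7, Rpl9, Rps3a1, Rps9 and Rps15a), which is 84.6% of the undernourished list and 50% of the control list. Over all genes tested the shares were 74.6% and 45.2%. Of the 8 fits that left out 1 control array, Rpl9 was called in 1, Rpl10 and Rps15a in 2 and Rps9 in 5. In control offspring Rpl9, Rpl10 and Rps15a were also not called with slide as a random block or with quantile normalization. Rps15a was not called in either maternal group when the probes of a gene were averaged. Its second probe was far dimmer, with a mean log2 level of −2.77 against 5.57 for the probe used. The sign was the same for 77 of 82 genes, 65 higher and 12 lower, and opposite for 5. That is 93.9% of members, against 76.9% of all genes. No gene was called lower in both. The interaction of maternal and offspring diet was called for 0 of 82 members (limma), against 0.00403% of all genes. At unadjusted p under 0.05 (limma) there were 0 members, against 2397 of all 24828 genes. So no member's difference between CR and AL was shown to differ between undernourished and control offspring.

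**Figure D4:**
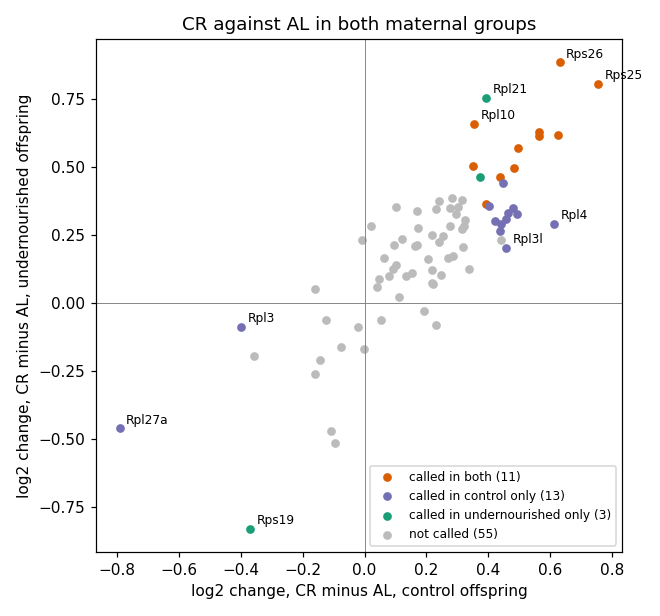
Each point is 1 of the 82 genes, with its log2 change, CR minus AL, in control offspring on the horizontal axis and in undernourished offspring on the vertical axis, coloured by the calls. 11 genes are called in both, Rps19 lies below 0 in both, and Rpl21 and Rps10 are called higher in undernourished offspring alone. In control offspring these 2 genes changed by 0.39 ± 0.15 and 0.37 ± 0.14, just short of the call (limma, adjusted p = 0.0518 and 0.0559).

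Maternal undernutrition was tested within each offspring diet. In AL offspring 0 of 82 members were called (limma), against 0.0322% of all genes. At unadjusted p under 0.05 (limma) there were 3 of 82 members, against 4780 of all 24828 genes. Member changes ranged from −0.46 to 0.44 with a median of 0.05. Rpl4 changed by 0.33 and Rps19 by 0.44, Rpl21 by −0.34 and Rpl3 by −0.21 (adjusted p = 0.205, 0.256, 0.217 and 0.417). In CR offspring 0 members were called (limma), against 0% of all genes, with member changes of −0.39 to 0.17 and a median of 0.03. At unadjusted p under 0.05 (limma) there were 0 members, against 712 of all 24828 genes.

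Within slides, where 2 undernourished arrays stood beside 2 control arrays, the members' median maternal change was 0.24 on slide 1 and −0.15 on slide 2, both AL, and −0.12 on slide 3 and 0.17 on slide 4, both CR. On slide 1 75 genes were positive and on slide 4 77, while on slides 2 and 3 71 were negative. The medians over all genes were 0.17, −0.04, −0.01 and 0.01 on slides 1 to 4. The direction of the members thus differed between slides of one diet. With 2 arrays on each side, single arrays weigh heavily. Slide 4 held undernourished CR replicate 4 (array median 0.47) beside replicate 3 (0.04). Slide 2 held control AL replicate 4 (0.15) beside replicate 3 (−0.15).

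**Figure D5:**
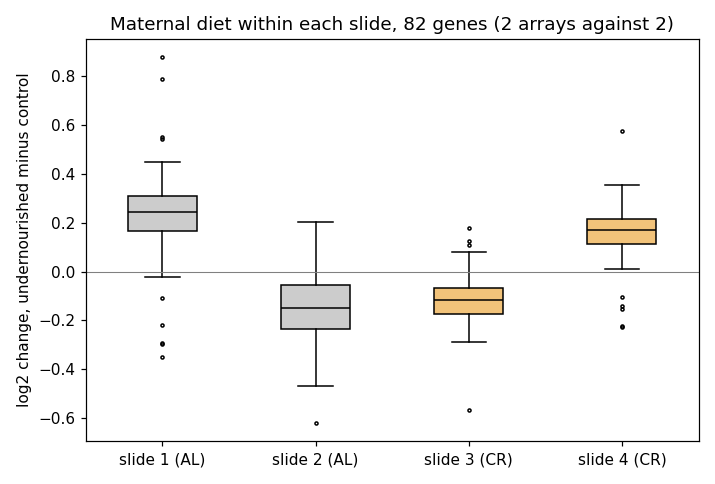
Boxes show the log2 change, undernourished minus control, of the 82 genes within each of 4 slides (2 arrays against 2). Medians are 0.24, −0.15, −0.12 and 0.17, with AL slides in grey and CR slides in orange.

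Other genes of translation were counted the same way. Of 42 translation factors and other TOP mRNAs, 3 were called higher and 1 lower in CR in undernourished offspring, and 9 higher and 3 lower in control offspring. Higher calls were 7.14% of the list, against 10.5% of all genes, in undernourished offspring, and 21.4%, against 17.3%, in control offspring. Eif3f, an initiation factor subunit, read 4.81, 4.76, 4.68 and 4.94 in undernourished CR, against 4.06, 3.98, 4.12 and 4.09 in undernourished AL, and rose by 0.73 ± 0.11 there and by 0.84 ± 0.11 in control offspring (adjusted p = 0.000744 and 0.000133). Eif5 fell by 0.49 ± 0.13 in undernourished offspring and by 0.48 ± 0.13 in control offspring (adjusted p = 0.0138 and 0.00941). Eef1a1 and Pabpc1, which are TOP mRNAs too, fell in control offspring by 0.32 ± 0.12 and 0.33 ± 0.12 (adjusted p = 0.0469 and 0.0380).

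Of 76 genes of ribosome biogenesis, 3 were called higher and 9 lower in CR in undernourished offspring, and 14 higher and 6 lower in control offspring. In undernourished offspring 3.95% were higher and 11.8% lower, against 10.5% and 9.85% of all genes, and in control offspring 18.4% and 7.89%, against 17.3% and 15.0%. Emg1, an rRNA methyltransferase, rose by 0.58 ± 0.15 in undernourished and 0.67 ± 0.15 in control offspring (adjusted p = 0.0138 and 0.00343). In undernourished offspring Rrp12, Gar1 and Ddx56 fell by 0.97 ± 0.25, 0.96 ± 0.26 and 0.79 ± 0.22 (adjusted p = 0.0152, 0.0197 and 0.0194). On undernourished CR arrays 1 to 4 Rrp12 read −0.22, −0.55, −0.41 and −1.43, and Gar1 −0.28, −0.30, −0.41 and −1.69. Replicate 4 was thus far the lowest for both. Ddx56 read 1.51, 1.79, 1.11 and 2.01, with replicate 4 highest. Fits without that array are not given for these genes. In control offspring Rrp1 fell by 0.99 ± 0.13 (adjusted p = 0.000132).

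Of 31 genes of mTORC1, S6 kinase and translational control, 2 rose and 2 fell in undernourished offspring, and 11 rose and 3 fell in control offspring. In undernourished offspring 6.45% were higher and 6.45% lower, against 10.5% and 9.85% of all genes, and in control offspring 35.5% and 9.68%, against 17.3% and 15.0%. Rps6kb1, the S6 kinase that phosphorylates Rps6, rose by 0.77 ± 0.12 and 0.68 ± 0.12 (adjusted p = 0.000816 and 0.000844). Ddit4, an mTORC1 inhibitor induced by glucocorticoids, fell by 2.27 ± 0.57 in undernourished offspring and fell by 2.195 ± 0.57 in control offspring (adjusted p = 0.0122 and 0.00854). Its paralog Ddit4l, also an inhibitor of mTORC1, rose by 0.66 ± 0.17 and 0.96 ± 0.17 in undernourished and control offspring (adjusted p = 0.0151 and 0.000913). Castor2, a relative of the arginine sensor of mTORC1, rose by 1.43 ± 0.34 in control offspring (adjusted p = 0.00489). None of the 3 lists had a gene called in either maternal comparison or in the interaction (limma).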

How the data were processed

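Total RNA of tibialis anterior was hybridised to one-colour Agilent mouse arrays, scanned and quantified with Agilent Feature Extraction 10.5.1.1, per the submitters' processing notes. The deposited intensity was the background-subtracted processed signal, and the flags for well above background and outlier spots are other columns of the deposited files. The authors' deposited log2 values are centred so that each probe has a median of 0 over the arrays, and no source here states their scale: differences between arrays had a median correlation of 0.814 and slope of 0.49 with the scanner values, in the same direction. Column medians ran from −0.0994 to 0.037.

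Control and outlier spots were left out, spots of a probe averaged, and log2 values taken relative to each array's 75th percentile. A probe entered if 4 or more arrays had it well above background, with the highest mean probe for each gene. SystematicName accessions named 24844 of 41174 probes through RefSeq. limma 3.58.1 in R 4.3.3 fitted 1 mean per group over 24828 genes, and Benjamini-Hochberg adjusted p under 0.05 was the call. The script was tested on simulated data. Named genes were up to 6 called members per direction with the largest change, or the 2 smallest p-values per direction where none was called, plus fixed members (among them Rpl3, Rpl3l, Rps6, Rpl5, Rpl11 and the stalk proteins), and up to 3 per direction of each further list. Members and lists were chosen with earlier results of these data known. The number of arrays limits precision.

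Same-numbered undernourished and control AL arrays, which share slides, deviated together (r = 0.112 to 0.441), and the replicate block took equal numbers as pairs. Because of the shared slides, these values cannot tell pairing from slide. Undernourished AL replicate 2 correlated best with control AL replicate 1. Alternatives were normexp, quantile normalization, no dim filter, the authors' values, mean of probes, slide and replicate blocks, a brain index covariate, and arrays left out. The mean signal planned for normexp was not used here, so the median signal replaced it. The brain index took 31 of 40 markers, those with a mean CR level below −2, and arrays were taken as raised in skin or liver transcripts above −4 (skin median or Alb). Both limits were chosen after seeing the data.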

Additional observations from a re-analysis of the deposited data

Results flagged for a closer look

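In 13 named genes and the array medians, 56 sets of 4 values were examined, and 8 held an array far from the other 3 of its group (the gap to the nearest, over the range, exceeded Dixon's critical value). Chance gives about 1 in 20 for independent sets. These sets share the same arrays, on which the genes moved together, so 8 of 56 cannot be set against that rate. Undernourished CR replicate 4 gave 5 of them: the ribosomal protein median at 0.471, Rpl35 at 6.69, Rpl35a at 5.79, Rps25 at 7.60 and Rps19 at 1.499. Over all 82 genes that array was far above the others of its group for 30. Control CR replicate 3 was far above its group for Rpl35a at 5.58 and Rps26 at 4.94. Undernourished AL replicate 4 was far below its group for Rpl21, at −3.06.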

How the results depend on the processing

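Main counts were 14 members called in undernourished and 24 in control offspring for CR against AL. In undernourished offspring the count was 28 with quantile normalization, 76 with the authors' log2 values and 10 to 17 with 1 array left out. In control offspring it was 75 with the authors' log2 values, 15 with slide as a random block, 2 with the brain index and 9 to 36 with 1 array left out. Without control AL replicates 1, 2 and control CR replicates 2 and 3 in turn it was 10, 9, 11 and 13. Leaving out the 5 arrays in which skin markers or albumin were raised left control AL with 1 array, so no count is given. Over all genes tested, calls in control offspring were 8029 in the main fit and 13990 with the authors' values. They were 6857 with slide as a random block, 3428 with the brain index and 11800 with the repaired normexp described below. In undernourished offspring the main fit called 5053 of all genes. All-gene calls of the other fits are not given for undernourished offspring. Their member counts therefore cannot show whether the members moved apart from other genes. For the members, normexp as planned called 0 in both maternal groups, and their median in control offspring was −0.0046. Over all genes that fit called 524 in control offspring. That fit was distorted by a few spots of extreme local background: on control CR replicate 4 the highest was 65530 against a median of 21, and the corrected values there correlated with the processed signal at 0.825. With local backgrounds over double the array median replaced, an alternative chosen after seeing the data and after seeing that the planned one called 0, the counts were 41 and 36, and the correlation was 0.972. Leaving out undernourished CR replicate 4 and control AL replicates 1 and 2, also chosen after seeing the data, gave 14 and 7. The member median in control offspring changed sign to −0.0457 without the raised arrays, where the all-gene median was −0.109. The log2 change of Rpl3 in control offspring was 0.0199 (adjusted p = 0.923) with the authors' values. Rpl27a in control and Rps19 in undernourished offspring were not called with those values either. With the replicate block, Rpl3 and Rps27l in control offspring and Rps9 in undernourished offspring were not called. The all-gene median in control offspring, 0.07 as reported, was 0.16 with quantile normalization, 0.29 with the authors' values, 0.26 with normexp as planned and −0.16 with it repaired. The replicate block, pairing equal numbers, gave 14 and 23 and 0 in the other comparisons. The maternal comparison in AL offspring gave 1 call without control AL replicate 4, and 0 otherwise. Where no value shows the cause of a change, the cause was not tested.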
